A study of Homo sapiens with 6 samples.

Results

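Mitochondrial ribosomal proteins are the protein parts of the ribosome that works inside mitochondria, and their genes carry names beginning with MRPL or MRPS. A probe was taken as a member when its gene symbol, in its current or older form, was MRPL or MRPS followed by a number and at most 1 letter. The rule found 110 probes on the array, and the 104 of them that were kept after the detection filter represented 76 genes among the 11388 genes tested. The RefSeq table lists 77 genes with such names, and the remaining one, MRPL27, was not analysed here.

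The cells were TT, a line derived from a human medullary thyroid carcinoma, a tumor of calcitonin-secreting C cells. There were 3 groups of 2 one-color Illumina bead arrays each: cells given 10 μM Y15, cells given 10 μM PF-04554878, and untreated cells. Y15 and PF-04554878, known as defactinib, are both small molecule inhibitors of focal adhesion kinase (FAK), and only Y15 is directed at the autophosphorylation site. Per the methods of the study, compounds were left on duplicate plates for a day, the solvents being PBS for Y15 and DMSO for PF-04554878, whereas the controls received neither, so a compound and its solvent cannot be told apart. The labels do not state that the arrays of a group came from separate cultures, and p-values then measure only the spread between these arrays, which may be technical.

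A mitochondrial ribosome has a small subunit, which reads the messenger RNA, and a large subunit, which joins amino acids. Its ribosomal RNAs are encoded in mitochondrial DNA, while all of its proteins are encoded in the nucleus, made in the cytosol and imported. It translates the few proteins that mitochondrial DNA encodes, which are core subunits of the respiratory chain and of ATP synthase. Many of its proteins have a counterpart in the bacterial ribosome, and others are particular to mitochondria. Names do not always follow position: MRPS18A and MRPS30 lie in the large subunit, which gave 50 large subunit and 26 small subunit genes here.

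The arrays differed in overall brightness. The median intensity over all probes ranged between 98.2 and 129.8, and between 15215 and 18488 probes were detected per array. The mean intensity over all probes was 263 and 273 in Y15-treated cells, 359 and 348 in PF-04554878-treated cells, and 539 and 468 in untreated cells. The median raw intensity of the members was 598 and 726 in Y15-treated cells, 415 and 400 in PF-04554878-treated cells, and 2314 and 1561 in untreated cells. After log2 transformation and quantile normalization the member medians were 9.95 and 10.11 in Y15-treated cells, 8.93 and 8.89 in PF-04554878-treated cells, and 10.22 and 9.95 in untreated cells. The untreated arrays were not alike for these genes, since untreated array 1 was above untreated array 2 in 69 of 76 members (90.8%), against 53.2% of all genes. Of 11 C cell and neuroendocrine markers on the array, 10 were detected on all 6 arrays. By contrast, 4 of 5 thyroid follicular markers, 3 of 4 immune markers, 4 of 6 fibroblast markers and 2 of 4 endothelial markers were detected on none. The exceptions detected on all 6 arrays were the immune marker CD68, a lysosomal protein of macrophages, and the thyroid marker DIO1, an iodothyronine deiodinase. CD68 was higher under both compounds (log2 change 1.89 under Y15 and 1.22 under PF-04554878), and the log2 of the summed immune markers was between 9.90 and 9.99 under Y15, 9.53 and 9.61 under PF-04554878, and 8.90 and 9.05 in untreated cells. DIO1 had log2 changes of −0.33 under Y15, which did not pass, and −0.80 under PF-04554878, which did. Of the 11 C cell and neuroendocrine markers 6 were lower (54.5%) and 0 higher under Y15, beside 21.5% and 16.7% of all genes. Under PF-04554878, 1 was lower (9.09%) and 4 higher (36.4%), beside 35.1% and 27.3% of all genes. The part of all these markers in the results was not tested.

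Most mitochondrial ribosomal protein genes were lower in PF-04554878-treated cells. In PF-04554878-treated against untreated cells 63 of the 76 members fell (82.9%) and 3 rose (3.95%), where 35.1% of all genes fell and 27.3% rose. To pass, a gene needed a change of 1.2-fold or more and an adjusted p under 0.05 in limma (Benjamini-Hochberg over all genes). The median log2 change of the members was −0.93, with quartiles of −1.40 and −0.47, beside a median of −0.07 over all genes. A fall of at least 2-fold was found for 34 members (44.7%), beside 9.58% of all genes. The members were brighter, with untreated medians of 10.22 and 9.95, beside 8.01 on both untreated arrays for all genes. Without background subtraction a dim gene has less room to fall by 2-fold. Genes were not matched for brightness in this or any other share set beside all genes. The 63 that fell came from both subunits, being 41 of 50 large subunit genes (median log2 change −1.09) and 22 of 26 small subunit genes (median −0.83). They also came from both origins, being 37 of 44 genes with a bacterial counterpart (median −0.98) and 26 of 32 genes particular to mitochondria (median −0.89). No test was made between these classes. In RNA from whole cultures, fewer cells with a transcript and less of it per cell cannot be told apart.

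Median scaling shifts all genes of an array by the same amount, which quantile normalization does not. The members were therefore also set against all genes under median scaling. With each array scaled to the median of all its probes, 73 members fell and 1 rose, but 66.4% of all genes fell and 8.33% rose as well. With scaling to the median of the tested probes, 56 members fell and 7 rose, while 24.0% of all genes fell and 52.3% rose. The median of the members lay below that of all genes by a log2 difference of −1.20 under median scaling, compared with −0.86 after quantile normalization. Both scalings only shift each array by a constant, so this difference is the same in both by construction.

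**Figure D1:**
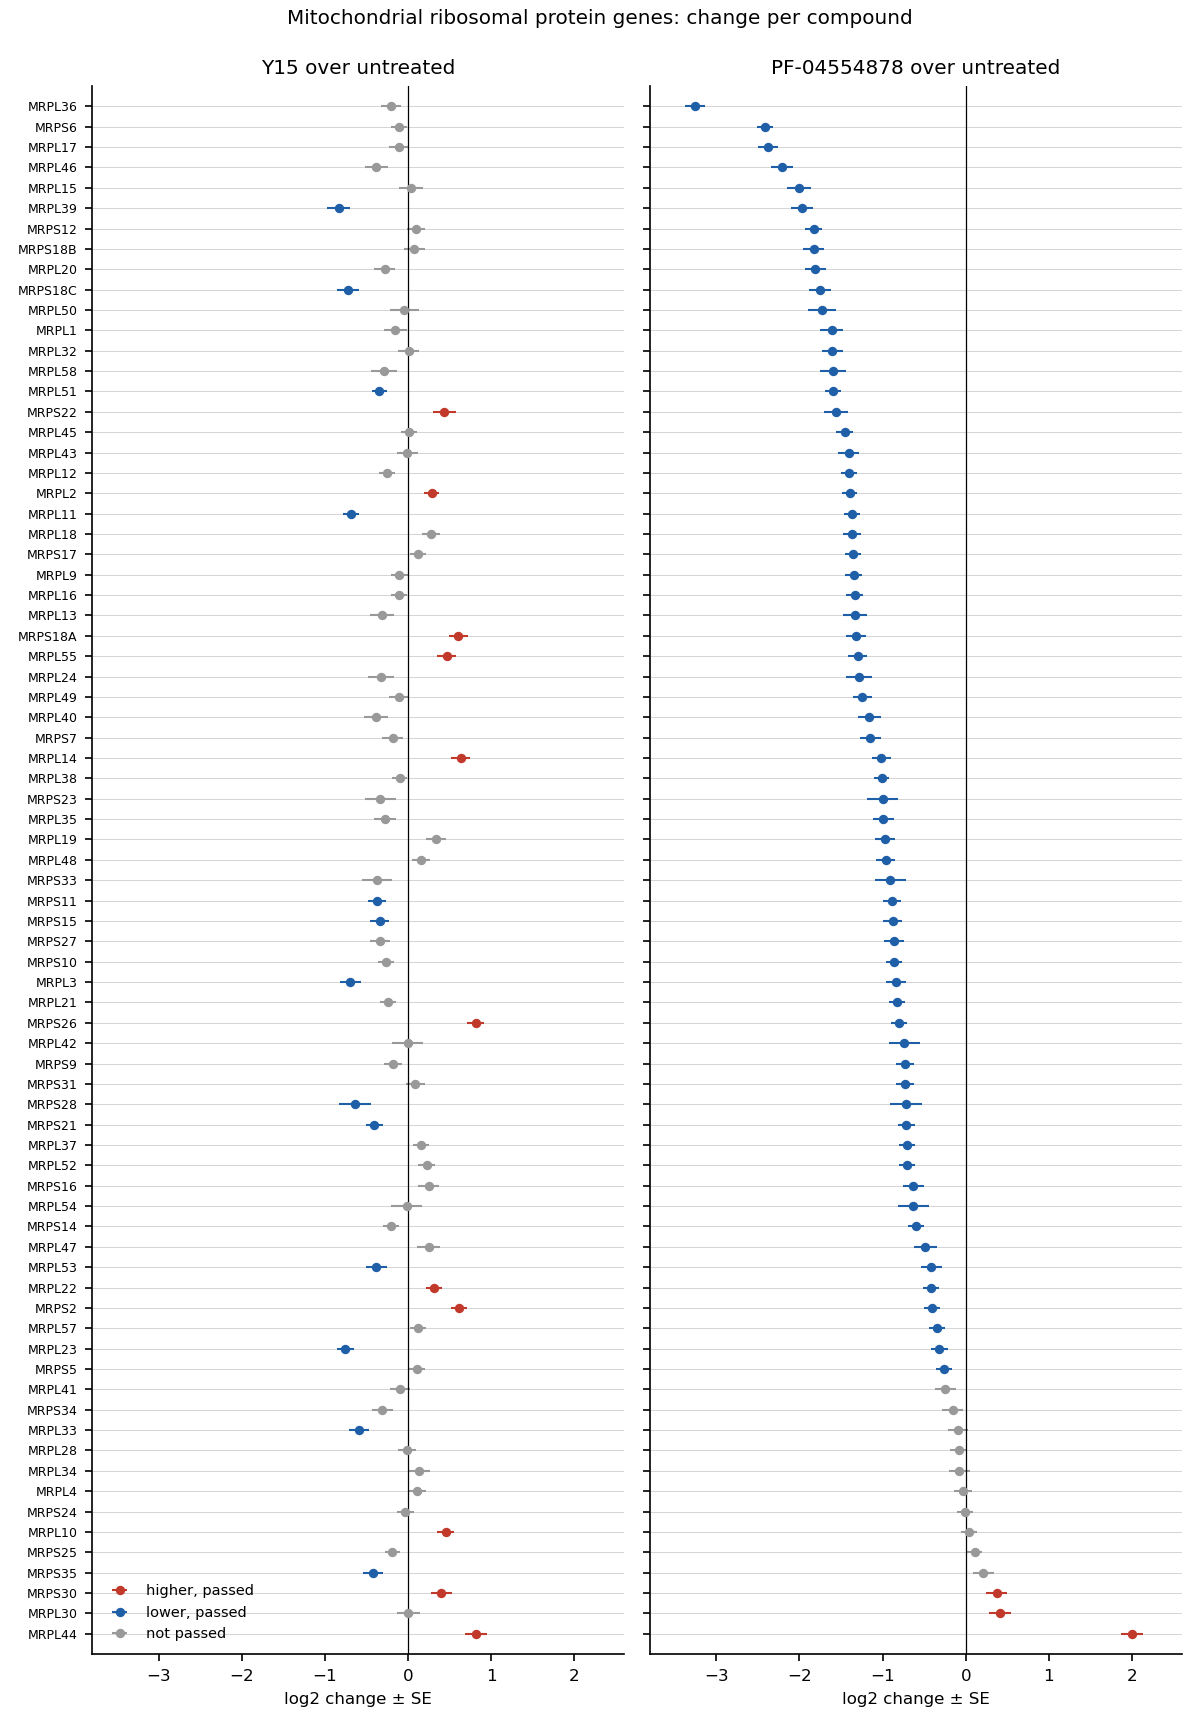
Log2 change (x axis, ± SE from the limma fit) of each of the 76 mitochondrial ribosomal protein genes (y axis, ordered by the change under PF-04554878), for Y15 over untreated cells on the left and PF-04554878 over untreated cells on the right. Under PF-04554878, 63 genes passed as lower and 3 as higher, and under Y15, 13 passed as lower and 11 as higher; with median scaling over all probes, 75 were lower and 0 higher under Y15, while 79.6% of all genes were lower and 3.37% higher.

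The largest fall under PF-04554878 was that of MRPL36, the counterpart of bacterial L36, a small zinc-binding protein of the large subunit. Its log2 intensity was 8.09 and 8.17 in PF-04554878-treated cells and 11.55 and 11.21 in untreated cells, a log2 change of −3.25 ± 0.12 (SE, limma adjusted p = 5.6e-07, n = 2 arrays each). The PF-04554878 arrays thus stood at 0.105 of the untreated level. In Y15-treated cells MRPL36 was at 11.19 and 11.17, close to the lower untreated array, and its log2 change of −0.20 did not pass (limma adjusted p = 0.21). Before normalization its intensity was 228 and 240 under PF-04554878, against 5326 and 3413 in untreated cells.

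MRPS6, the counterpart of bacterial S6 in the small subunit, gave the next largest fall. It was at 9.92 and 9.79 in PF-04554878-treated cells and at 12.31 and 12.23 in untreated cells, with a log2 change of −2.41 ± 0.09 (SE, limma adjusted p = 5.7e-07). The Y15 arrays, at 12.16 and 12.16, lay below both untreated arrays by far less than the PF-04554878 arrays did. MRPL17, the counterpart of bacterial L17, was at 8.57 and 8.63 in PF-04554878-treated cells and at 11.14 and 10.82 in untreated cells (log2 change −2.38 ± 0.12, SE, limma adjusted p = 1.2e-06). MRPL46, a large subunit protein with no bacterial counterpart, was at 7.90 and 8.27 in PF-04554878-treated cells and at 10.41 and 10.16 in untreated cells (log2 change −2.21 ± 0.14). MRPL15 and MRPL39 followed, with log2 changes of −2.003 and −1.97. MRPL15 is the counterpart of bacterial L15, and MRPL39 resembles a threonyl-tRNA synthetase. For each of these 6 genes both PF-04554878 arrays lay below both untreated arrays and both Y15 arrays. Their falls passed under all 21 alternative settings tried, though not every one of these settings could remove a call.

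Further members with well known roles fell with them. MRPS12, whose bacterial counterpart sits in the decoding center, had a log2 change of −1.83. MRPL58, a peptidyl-tRNA hydrolase built into the large subunit, had a log2 change of −1.60 under PF-04554878. MRPL12 of the ribosomal stalk had a log2 change of −1.40, and its stalk partner MRPL10 one of 0.04, which did not pass (limma adjusted p = 0.74). MRPL45, which resembles an import protein of the inner membrane, had a log2 change of −1.45. The 3 relatives of bacterial S18 all fell under PF-04554878, by 1.32 for MRPS18A, by 1.83 for MRPS18B and by 1.75 for MRPS18C on the log2 scale. In the counts by origin MRPS18A was placed among the genes particular to mitochondria.

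MRPS14, the counterpart of bacterial S14, was not detected on either PF-04554878 array. Its level there is only a bound, and it was at least 1.49-fold lower than in untreated cells (limma adjusted p = 0.00063). The fall of MRPS14 lost its call with scaling to the median of the tested probes (limma adjusted p = 0.07, range over the alternatives 4.7e-05 to 0.07). MRPS21, which has a bacterial counterpart, also lost its call under that scaling (log2 change −0.15, limma adjusted p = 0.28).

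The exceptions under PF-04554878 were 3 genes of the large subunit that rose. MRPL44, which has the fold of a ribonuclease III, was at 10.49 on both PF-04554878 arrays, against 8.69 and 8.29 in untreated cells. This was a 4.002-fold rise (log2 change 2.001 ± 0.13, SE, limma adjusted p = 4.1e-06), and MRPL44 was the only member to rise by over 2-fold. Its raw intensity was also higher, at 1345 and 1323 under PF-04554878 against 828 and 510 in untreated cells. The rise of MRPL44 passed under all 21 alternatives, its log2 change being between 1.21 and 2.28. MRPL44 had only 1 kept probe, so the rise rests on that probe and other probe rules could not change its values.

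MRPL30, the counterpart of bacterial L30, was at 8.63 and 8.36 in PF-04554878-treated cells and at 8.24 and 7.92 in untreated cells (log2 change 0.41, limma adjusted p = 0.026). MRPS30 was at 10.31 and 10.63 in PF-04554878-treated cells and at 10.20 and 9.98 in untreated cells (log2 change 0.37, limma adjusted p = 0.028). Both rises were small, and neither held throughout. Without either Y15 array (adjusted p = 0.052 for MRPL30 and 0.058 for MRPS30) or without untreated array 2 (0.15 and 0.14) neither passed. MRPL30 did not pass without PF-04554878 array 1 (adjusted p = 0.17), and MRPS30 did not pass without PF-04554878 array 2 (0.18). Under median scaling over all probes the log2 changes of MRPL30 and MRPS30 were −0.47 and −0.38, while that of all genes was −0.59 at the median.

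The other 10 members did not pass under PF-04554878. Among them were MRPL28 (log2 change −0.09), MRPL4 (−0.03) and MRPS24 (−0.01), and the 10 changes lay between −0.24 for MRPL41 and 0.21 for MRPS35.

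**Figure D2:**
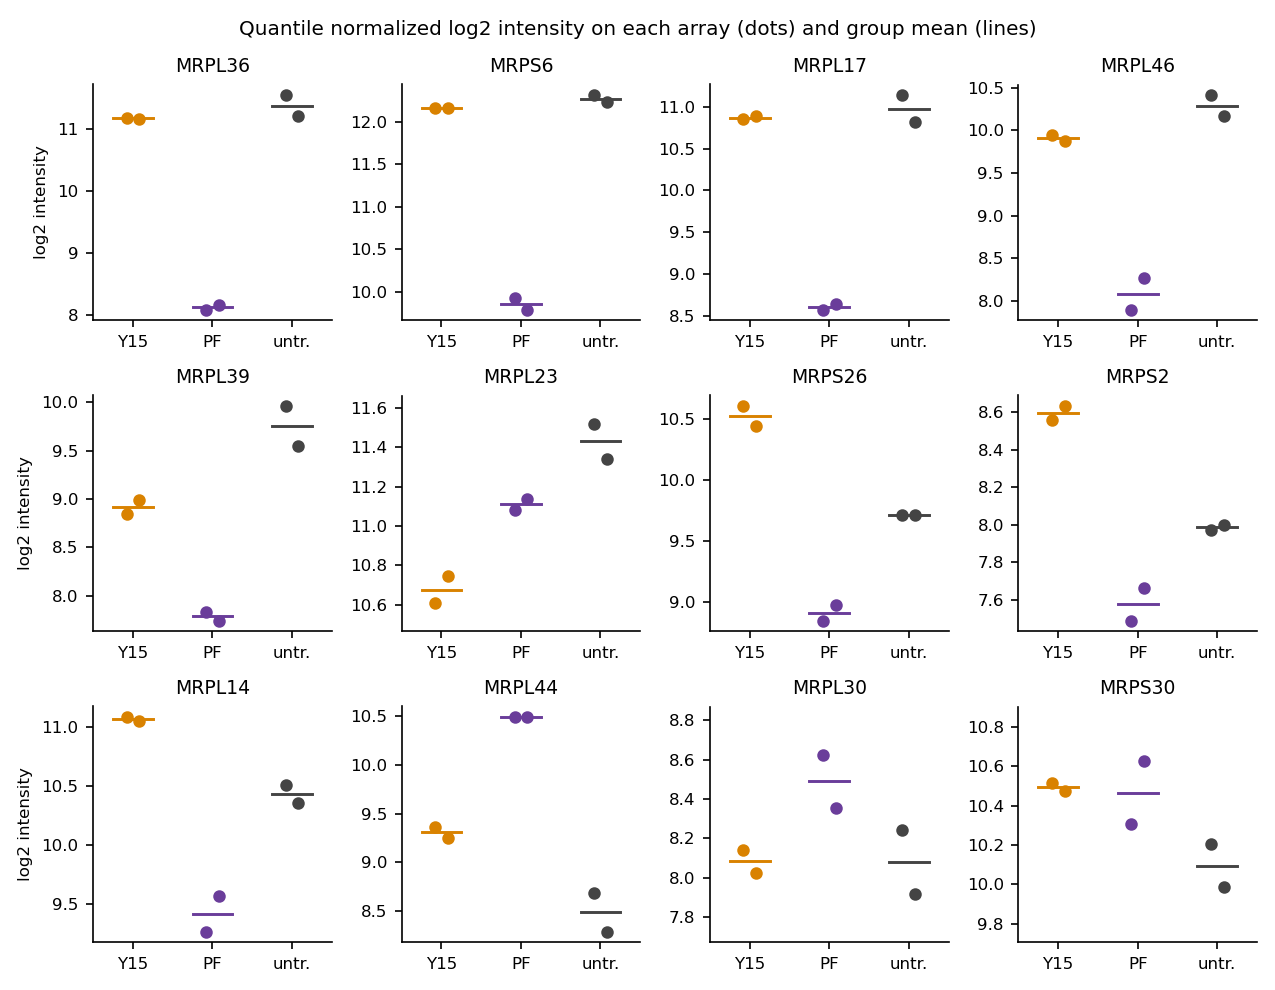
Quantile normalized log2 intensity (y axis) of 12 members on each array (dots) with the mean of each group (lines), for Y15, PF-04554878 (PF) and untreated cells (untr.) along the x axis. MRPL36, MRPS6, MRPL17 and MRPL46 are lowest under PF-04554878, and MRPL44 is at 10.49 on both PF-04554878 arrays against 8.69 and 8.29 in untreated cells; each panel has its own scale.

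To see what the members share in sequence, the promoter windows of RefSeq (GRCh38.p14), which run 250 bases before to 50 bases after a gene's start, were searched for 3 motifs known from genes of mitochondrial proteins. These were the core of the NRF1 site, GCATGCGC, the core of ETS factors such as GABPA, CCGGAAGT, and the core of YY1, AAGATGGC, each searched on both strands. The windows matched 68 of the 76 members. The YY1 letters were found for 30.9% of these members, against 3.52% of all 27305 genes with a window and 6.57% of the genes tested that had one. The ETS letters were found for 16.2% of members, against 4.95% of all genes with a window and 9.84% of genes tested. The NRF1 letters were found for 8.82% of members, against 3.68% and 6.74%. Of the 21 members with a YY1 match, 16 had one after the start of the gene. A match to any of the 3 was found for 42.6% of members, against 11.2% of all genes with a window and 20.9% of genes tested. It was found for 26 of 56 members lower under PF-04554878 (46.4%) and for 3 of 12 that were not (25%). The same split was not made over all genes, and nothing is read from it. A match is a description of the letters and not of binding, and no test was made.

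The following stretches of 150 bases before the start show 1 match of each kind among genes with a large fall, beside MRPL44, the gene that rose most. They were picked to show the motifs, and both kinds of gene occur with and without a match. They are written 5′ to 3′ in the direction of the gene with matches in capitals. MRPL36 has a YY1 match (chr5:1799838-1799987, minus strand), MRPL17 has NRF1 matches (chr11:6683341-6683490, minus strand), MRPL20 has an ETS match (chr1:1407294-1407443, minus strand) and MRPL44 has none in this stretch (chr2:223957313-223957462, plus strand).
MRPL36: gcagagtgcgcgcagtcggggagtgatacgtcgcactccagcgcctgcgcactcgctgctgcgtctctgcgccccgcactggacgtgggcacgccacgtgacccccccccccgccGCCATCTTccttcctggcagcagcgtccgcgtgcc
MRPL17: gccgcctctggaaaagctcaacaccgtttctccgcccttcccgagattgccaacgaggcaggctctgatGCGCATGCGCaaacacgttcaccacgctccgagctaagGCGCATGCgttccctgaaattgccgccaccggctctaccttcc
MRPL20: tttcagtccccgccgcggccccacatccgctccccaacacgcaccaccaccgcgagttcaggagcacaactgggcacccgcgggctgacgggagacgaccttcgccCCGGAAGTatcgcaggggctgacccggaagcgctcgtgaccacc
MRPL44: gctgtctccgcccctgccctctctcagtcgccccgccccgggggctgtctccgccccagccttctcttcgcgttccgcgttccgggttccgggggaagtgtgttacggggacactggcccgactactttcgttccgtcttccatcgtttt
In MRPL17 there are 3 matches, of which the NRF1 letters on one strand overlap those on the other in the first capital run. MRPL20, the counterpart of bacterial L20, had a log2 change of −1.81 under PF-04554878. MRPS6 and MRPL39, which fell by 2.41 and 1.97 on the log2 scale, have no match to any of the 3 motifs in their windows. MRPS30, which rose, and MRPS24, which did not pass, each have a YY1 match after the start, beginning at bases 14 and 20.

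The members are scattered over the genome, with genes on 21 chromosomes and at most 8 on one. Many start head to head with another gene, on the opposite strand and within 1000 bases. This holds for 25 of the 68 members with a window (36.8%), against 20.1% of all genes with one. MRPL46 and MRPS11 form the only pair of 2 members, with starts 320 bases apart, and under PF-04554878 both fell, with log2 changes of −2.21 and −0.89. In 16 further pairs the partner was no member but was tested. In 10 of these the member had a log2 change below −1 under PF-04554878, and the partner had one below −1 in 2 pairs and one within 0.5 of 0 in 7. The 2 pairs were MRPL51 with the condensin gene NCAPD2 (log2 changes −1.60 and −2.28) and MRPS18B with PPP1R10 (−1.83 and −1.53). The partner but not the member was below −1 for MRPL30 with MITD1 (0.41 and −1.40) and MRPL57 with SKA3 (−0.35 and −1.003). Over all genes under PF-04554878, percentiles 9 and 10 were −1.03 and −0.98, and percentiles 24 and 81 were −0.49 and 0.47. Nothing is read from the partner counts. MRPL49 and its partner FAU, whose product holds a cytosolic ribosomal protein, had log2 changes of −1.24 and 0.33. MRPL18 and TCP1, a chaperonin gene, had log2 changes of −1.36 and 0.01.

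Fewer members changed in Y15-treated cells, by less and in both directions. In Y15-treated against untreated cells 11 members rose (14.5%) and 13 fell (17.1%), where 16.7% of all genes rose and 21.5% fell. With all 6 arrays the members' shares were near those of all genes. Their median log2 change was −0.10, beside −0.05 for all genes. No member reached a 2-fold change, which 3.28% of all genes did as higher and 1.38% as lower. These counts depended on single arrays. The numbers higher and lower were 4 and 5 when Y15 array 1 was left out, 6 and 9 for Y15 array 2, 13 and 7 for untreated array 1, and 6 and 25 for untreated array 2. The shares of all genes higher and lower were then 9.62% and 10.1%, 10.2% and 10.7%, 14% and 17.2%, and 14.4% and 19%, in the same order. With scaling to the median of all probes 0 were higher and 75 lower, while 79.6% of all genes were lower. With scaling to the median of the tested probes 7 were higher and 25 lower, while 42.2% of all genes were higher and 21.6% lower. The member median was then below that of all genes by a log2 difference of −0.33, compared with −0.05 after quantile normalization.

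Among the rises under Y15, MRPL44 was again first. It was at 9.36 and 9.25 in Y15-treated cells and at 8.69 and 8.29 in untreated cells (log2 change 0.82 ± 0.13, SE, limma adjusted p = 0.0017). MRPS26, a small subunit protein particular to mitochondria, was at 10.60 and 10.44 in Y15-treated cells and at 9.71 on both untreated arrays (log2 change 0.81 ± 0.10, limma adjusted p = 0.00047). The Y15 and untreated arrays did not overlap for either gene. MRPL14, the counterpart of bacterial L14, had a log2 change of 0.63 and MRPS2, that of bacterial S2, one of 0.61. MRPS18A also had a log2 change of 0.61 and lost its call without Y15 array 1 (adjusted p = 0.055). MRPL55 had a log2 change of 0.46 and lost its call without Y15 array 1, Y15 array 2 or untreated array 2 (adjusted p = 0.087, 0.06 and 0.057). All these rises passed after quantile normalization, and all 6 log2 changes were negative under median scaling over all probes, between −0.65 for MRPL55 and −0.32 for MRPL44 and MRPS26. The median over all genes was then −0.78, so that all 6 genes stayed above it.

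The largest fall under Y15 was that of MRPL39, at 8.85 and 8.99 in Y15-treated cells and at 9.96 and 9.55 in untreated cells (log2 change −0.83 ± 0.14, SE, limma adjusted p = 0.002). MRPL23, whose bacterial counterpart lies at the exit of the peptide tunnel, was at 10.61 and 10.75 in Y15-treated cells and at 11.52 and 11.34 in untreated cells (log2 change −0.75 ± 0.10). MRPS18C, MRPL3 and MRPL11 followed, with log2 changes of −0.72, −0.69 and −0.69. MRPL3 and MRPL11 are counterparts of bacterial L3 and L11. These 5 falls passed under all 21 alternatives. MRPS28 had a log2 change of −0.64 (limma adjusted p = 0.03) and lost its call without any 1 of 5 arrays, at adjusted p = 0.23 and 0.053 without Y15 array 1 and 2, 0.055 without either PF-04554878 array and 0.13 without untreated array 1.

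A total of 8 members passed in opposite directions under the 2 compounds, higher under Y15 and lower under PF-04554878, as did 3.21% of all genes. The comparisons share the untreated arrays, and the values are therefore given side by side. MRPS26 had log2 changes of 0.81 under Y15 and −0.80 under PF-04554878. On the same scale MRPL14 had 0.63 and −1.01, MRPS18A 0.61 and −1.32, and MRPS2 0.61 and −0.41. MRPL55 had 0.46 and −1.30, and MRPS22, a small subunit protein particular to mitochondria, 0.44 and −1.56. MRPL22, whose counterpart lines the peptide tunnel, had 0.31 and −0.42, and MRPL2, near the site of peptide bond formation, 0.28 and −1.40. The rises under Y15 of MRPS22, MRPL22 and MRPL2 lost their calls without Y15 array 1, Y15 array 2 or untreated array 2, at adjusted p between 0.11 and 0.21. The fall of MRPL22 under PF-04554878 lost its call with scaling to the median of the tested probes (log2 change −0.14, adjusted p = 0.28). Its difference between the compounds lost its call with scaling to the median of all probes (0.37, adjusted p = 0.072). All 8 had negative log2 changes under Y15 with median scaling over all probes. Of the remaining members 11 fell under both compounds (12.8% of all genes did), 2 rose under both, MRPL44 and MRPS30 (8.35% of all genes), and 44 passed only as lower under PF-04554878 (19.2% of all genes). These counts are a description, and nothing is read from them about the compounds. MRPL10 passed only as higher under Y15 (5.16% of all genes did), and MRPL33 and MRPS35 only as lower under Y15 (5.90%). MRPL30 passed only as higher under PF-04554878 (16.1%), and 7 members passed under neither compound, beside 26.6% of all genes.

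The direct comparison of the compounds at the same dose and time asked how far they differ. In Y15-treated against PF-04554878-treated cells 60 of 76 members were higher (78.9%) and 6 lower (7.89%), where 33.0% of all genes were higher and 27.7% lower. At 2-fold 33 members were higher (43.4%), beside 9.13% of all genes. The median log2 difference was 0.87, beside 0.05 for all genes. With scaling to the median of all probes 41 members were higher and 5 lower, while 20.7% of all genes were higher and 28.6% lower. With that of the tested probes 50 members were higher and 6 lower, beside 24.2% and 29.8% of all genes. The median log2 difference of the members was above that of all genes by 0.65 in both, which is the same by construction.

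MRPL36 gave the largest difference between the compounds, at 11.19 and 11.17 in Y15-treated cells against 8.09 and 8.17 in PF-04554878-treated cells, or 8.29-fold (log2 difference 3.05 ± 0.12, SE, limma adjusted p = 5.9e-07). MRPS6 (log2 difference 2.31), MRPL17 (2.27), MRPL15 (2.04), MRPS22 (1.998) and MRPS12 (1.92) followed. For these 6 genes the Y15 arrays lay far above the PF-04554878 arrays, and all 6 passed under all 21 alternatives. The 6 members lower with Y15 than with PF-04554878 were MRPL44 (log2 difference −1.18), MRPS35 (−0.64), MRPL33 (−0.50), MRPL23 (−0.43), MRPL30 (−0.41) and MRPS25 (−0.30). Without Y15 array 1 only MRPL44 and MRPS35 of these passed. MRPS25, a small subunit protein, was undetected in both Y15 samples, at least 1.16-fold lower than in PF-04554878-treated cells (limma adjusted p = 0.017). It lost its call also without Y15 array 2 (adjusted p = 0.059) and without PF-04554878 array 1 (0.055). MRPL30 lost its call without Y15 array 2 (adjusted p = 0.16) and without PF-04554878 array 1 (0.18).

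A difference between the compounds was not shown for 10 members, and the intervals say how large it could be. For MRPL3, which fell under both compounds, the log2 difference was 0.15 with a 95% confidence interval of −0.13 to 0.43. For MRPL53, another gene lower under both, it was 0.03 (−0.25 to 0.32), and for MRPS30, higher under both, it was 0.03 (−0.26 to 0.32). For MRPS28 the interval was wider, from −0.36 to 0.52.

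**Figure D3:**
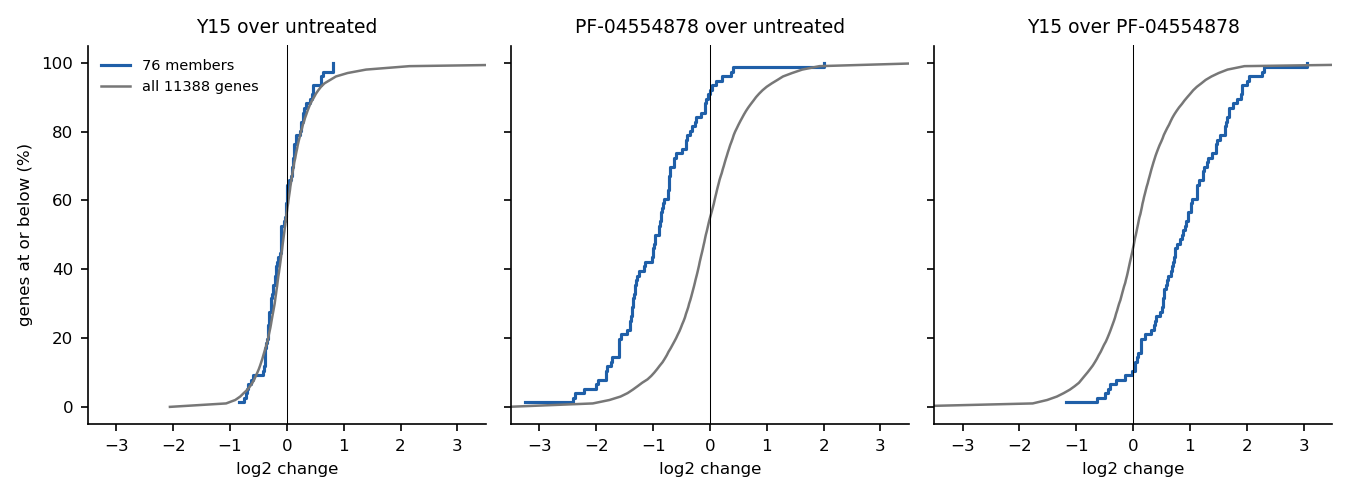
Share of genes (y axis, percent) with a log2 change at or below the value on the x axis, for the 76 members (blue) and all 11388 genes tested (grey), in Y15 over untreated, PF-04554878 over untreated and Y15 over PF-04554878. The curve of the members lies to the left of that of all genes under PF-04554878 (medians −0.93 and −0.07), to its right between the compounds (0.87 and 0.05), and close to it under Y15 (−0.10 and −0.05).

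Each gene was read from its brightest kept probe, and 23 members had further kept probes. Under PF-04554878 all kept probes of a gene gave the same call for 16 of these 23 genes. They passed in opposite directions for 2 genes, MRPL43 and MRPL30, and lay over 1 apart on the log2 scale for 7. Counted by probe, 82 of the 104 kept probes were lower under PF-04554878 and 4 higher. The probes carry different transcript accessions for some genes, and whether transcripts or probes differed was not tested.

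For MRPL43, a large subunit protein, the brightest probe had a log2 change of −1.40 and another −0.51, while a dim probe detected on 4 arrays had 0.47. For MRPL22 the brightest probe had −0.42 and the other −2.35, and under Y15 the probes passed as 0.31 and −0.80. For MRPL30 the brightest probe had 0.41 and the other, detected on 2 arrays, −0.27. The direction of MRPL22 under Y15 and of MRPL30 under PF-04554878 thus differed between their probes. MRPS12, MRPS18B, MRPL11, MRPL55 and MRPS21 had probes over 1 apart, none of which passed in opposite directions. MRPL42 had log2 changes of −0.74 and 0.10 under PF-04554878, and only the first passed. Between the compounds the probes of MRPL42 (log2 differences 0.74 and −0.53) and MRPL43 (1.395 and −0.60) passed in opposite directions, and those of MRPL45 were 1.46 and 0.04.

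**Figure D4:**
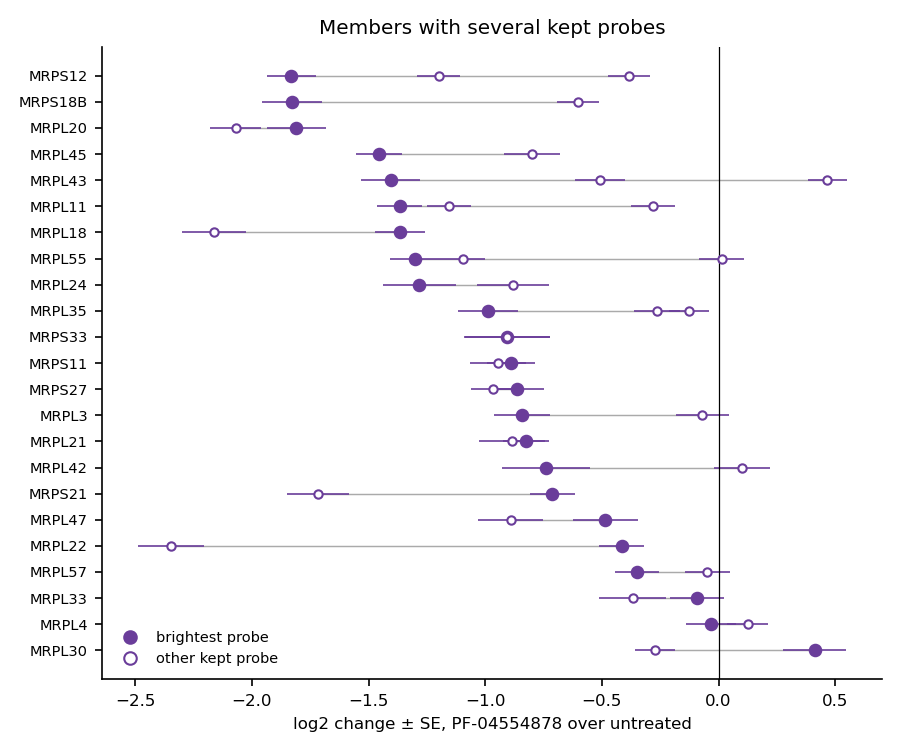
Log2 change of PF-04554878-treated over untreated cells (x axis, ± SE) for each kept probe of the 23 members with more than 1 (y axis), with the brightest probe filled and the others open. MRPL43 has probes at −1.40 and 0.47 and MRPL22 at −0.42 and −2.35, while MRPS33, MRPS11, MRPS27 and MRPL21 have probes that lie close together.

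Other counts were found for the most similar groups of genes under PF-04554878. Of 67 cytosolic ribosomal protein genes 5 fell (7.46%) and 12 rose (17.9%), with a median log2 change of 0.08. Of 75 nuclear genes for subunits of oxidative phosphorylation 31 fell (41.3%) and 5 rose (6.67%), with a median of −0.22. Over all genes 35.1% fell and 27.3% rose. The 63 of 76 members that fell are thus a larger share than in either group, though no test between lists was made. Under Y15 the order was another one. Of 75 oxidative phosphorylation genes 29 were lower (38.7%, median −0.24), beside 21.5% of all genes. Of 67 cytosolic ribosomal protein genes 12 were lower (17.9%, median −0.05), and of 76 members 13 (17.1%).

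Genes that serve the mitochondrial ribosome were also measured. Among 24 assembly factors 17 fell (70.8%) and 0 rose under PF-04554878 (median log2 change −0.47), where 35.1% of all genes fell and 27.3% rose. MALSU1, which keeps the large subunit from joining the small one too early, had a log2 change of −2.77, with 7.78 and 8.43 in PF-04554878-treated cells against 10.98 and 10.76 in untreated cells. ERAL1, a GTPase that binds the RNA of the small subunit, had a log2 change of −1.97, MTERF3 one of −1.48, and TFB1M, which methylates the same RNA, one of −1.34. Of 18 translation factors 9 fell (50%) and 2 rose (11.1%), with log2 changes of −1.82 for the initiation factor MTIF3 and 0.53 for the elongation factor GFM1. Of 3 mitochondrial ribosomal proteins with other names, CHCHD1 fell (log2 change −1.01), and DAP3 had a log2 change of −0.23 that did not pass. Under Y15, 4 assembly factors fell (16.7%) and 1 rose (4.17%), and 5 translation factors fell (27.8%) and 0 rose. Of all genes 21.5% fell and 16.7% rose under Y15.

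Genes of mitochondrial DNA and transcription moved both ways under PF-04554878, 13 of 23 falling (56.5%) and 5 rising (21.7%), beside 35.1% and 27.3% of all genes. TFAM, which packages mitochondrial DNA and starts its transcription, was at 11.04 and 11.02 in PF-04554878-treated cells and at 8.85 and 8.71 in untreated cells (log2 change 2.25, limma adjusted p = 6.2e-07). SSBP1, the single-strand binding protein of mitochondrial DNA, went the other way with a log2 change of −2.02. FASTKD5 and SUPV3L1 of the same list had log2 changes of 1.76 and 1.51. Of 9 regulators of mitochondrial biogenesis 5 fell (55.6%) and 2 rose (22.2%). Those that rose were GABPA, an ETS factor, with a log2 change of 1.62 and YY1 with 0.94. Among those that fell were the nuclear receptor ESRRA, with a log2 change of −0.89, and the coactivator PPRC1, with −0.87. NRF1 had a log2 change of 0.17 that did not pass (limma adjusted p = 0.16) and was detected on 3 arrays.

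**Figure D5:**
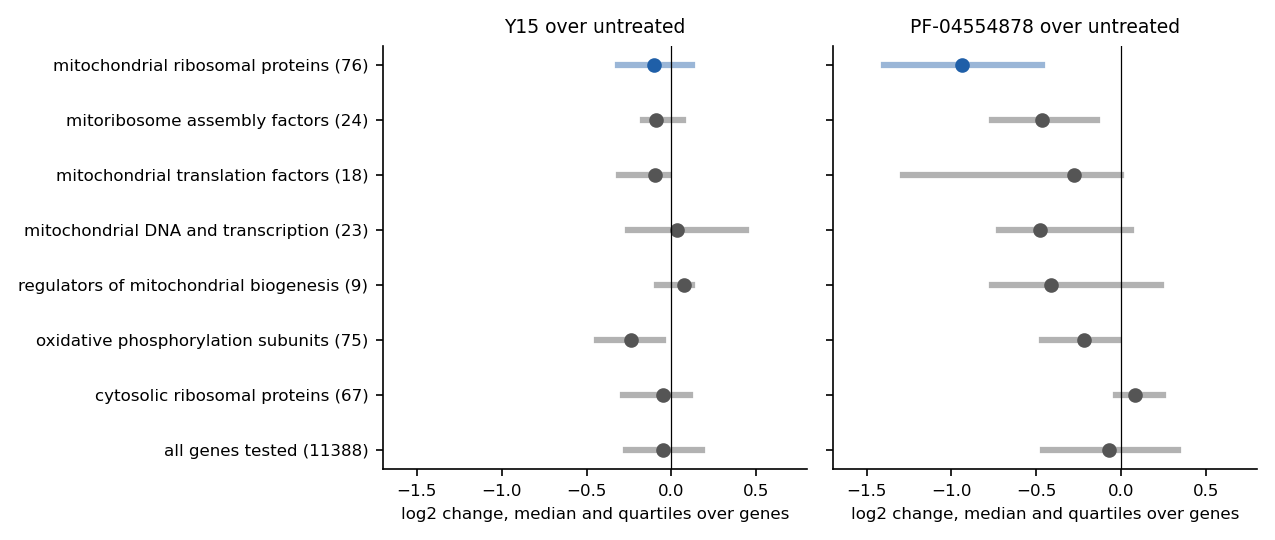
Median (dot) and quartiles (bar) of the log2 change over the genes of each list (y axis, number of genes measured in brackets), for Y15 over untreated cells on the left and PF-04554878 over untreated cells on the right. Under PF-04554878 the median is −0.93 for the mitochondrial ribosomal proteins, −0.47 for the assembly factors, −0.22 for oxidative phosphorylation subunits and 0.08 for cytosolic ribosomal proteins.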

How the data were processed

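TT cells were profiled on 6 Illumina bead arrays, 2 per group, grouped by the GEO labels. The methods name the HumanRef-8 chip, but the probe identifiers match the HumanHT-12 v4 annotation, which named the probes. The deposited non-normalized file held mean bead intensity per probe from GenomeStudio (its version is not given in the sources used here), without background subtraction. The deposited detection p-value beside it compares a probe with the negative control beads. The authors' value table held log2 values quantile normalized with lumi.

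Intensities were log2 transformed and quantile normalized over 47317 probes. Probes with detection p below 0.01 on at least 2 arrays were kept, and each of 11388 genes was read from the brightest of them. Of the members, 74 were detected on all 6 arrays. A model of group means over the 6 arrays was fitted in limma 3.58.1 (R 4.3.3), two-sided, with Benjamini-Hochberg adjustment over all genes. The script was tested on simulated data. A probe undetected on both arrays of a group gave a bound only: the brighter group's mean was set against the mean of a floor, taken on each dim array as its own signal or the lowest signal of any detected probe, whichever was higher. The number of arrays limits the precision.

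The members and gene lists were chosen with earlier results of these data known. The text names the 6 largest rises and falls per comparison among those passing, members passing in opposite directions, members with disagreeing or undetected probes, and up to 4 per other list, and others were chosen after their values were seen. Alternatives were nec (offset 50) and neqc (offset 16) background correction, median scaling, the deposited table, other filters, probe rules, priors and thresholds, a replicate block, the 4 compared arrays alone, and leaving out each array. Not all of these could remove a call. The deposited table matched the main values to 5e-09, and dropping the fold minimum only loosened the rule. Leaving out an array of the group not compared repeated the fit on the 4 compared arrays. Promoters came from the RefSeq table. Probe sequences were not used here.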

Additional observations from a re-analysis of the deposited data

How the results depend on the processing

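Over the alternatives run, 56 to 73 members were lower under PF-04554878 (63 as reported) and 41 to 60 were higher with Y15 than with PF-04554878 (60 as reported). Of the 63 falls 56 remained with scaling to the median of the tested probes, where MRPS14, MRPL22 and MRPS21 were among those lost, and of the 60 differences 41 remained with scaling to the median of all probes. The counts under Y15 moved more. With neqc 7 members were higher and 7 lower under Y15, with scaling to the median of all probes 0 and 75, and with scaling to the median of the tested probes 7 and 25. Members higher under PF-04554878 numbered 1, 7 and 1 with all-probe scaling, tested-probe scaling and only the 4 arrays compared. Member medians were −1.11 (Y15), −1.79 (PF-04554878) and 0.62 (Y15 over PF-04554878) with all-probe scaling, 0.64 for the last with tested-probe scaling, and −1.09 and 1.01 with neqc for the last 2.

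Leaving out 1 array gave 4 to 13 higher and 5 to 25 lower under Y15 (median −0.21 to 0.0095), 1 to 4 and 58 to 62 under PF-04554878 (−1.09 to −0.81), and 55 to 60 and 2 to 6 between the compounds (0.80 to 0.94). Directions turned with all-probe scaling for MRPL44 (−0.32), MRPS26 (−0.32), MRPL14 (−0.44), MRPS2 (−0.41), MRPS18A (−0.55), MRPL55 (−0.65), MRPL2 (−0.86), MRPL22 (−0.69) and MRPS22 (−0.70) under Y15, and for MRPL30 (−0.47) and MRPS30 (−0.38) under PF-04554878, where all genes shifted too. MRPL22 under Y15 was −0.24 as the mean of its probes.

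The deviations of arrays of the same number correlated over genes at 0.20 for PF-04554878 and untreated cells, but at −0.10 for Y15 and PF-04554878 and −0.26 for Y15 and untreated cells, and the numbers were not taken to pair the arrays. With a replicate block 9 members were higher and 15 lower under Y15, 3 and 62 under PF-04554878 and 60 and 6 between the compounds. With the Y15 numbers crossed, an alternative chosen after seeing the data, the counts were 12 and 19, 3 and 63, and 60 and 6. Signal near background limits MRPS14 and MRPS25, and it is not confined to them. Under PF-04554878 the raw intensity of MRPS18A was 138 and 152 and that of MRPL50 137 and 152. The medians over all probes on these arrays were 113 and 112.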
